A study of Homo sapiens with 20 samples.

Results

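The 10 genes followed here mark output and negative feedback of the RAS-ERK branch of MAP kinase signalling. They were measured in WM793, a human melanoma line in long-established culture, and in its 4 derivatives that overexpress NME1. The genes are DUSP4, DUSP5, DUSP6, SPRY2, SPRY4, SPRED1, SPRED2, ETV4, ETV5 and PHLDA1. They were chosen by name, as the rows whose platform annotation gives one of these symbols. All 10 were found, each as 1 row with no other symbol, among the 18708 rows of the deposited table. Each row summarises the probes of 1 transcript cluster as a log2 value.

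Of the 5 lines, NME1-wild-type overexpresses the unmutated protein, NME1-E5A overexpresses the E5A mutant, NME1-K12Q the K12Q mutant and NME1-P96S the P96S mutant, and Parent is the line they were made from. All were WM793 cells, described in the labels as vertical growth phase melanoma, and all were grown for 3 days before total RNA was hybridised to Affymetrix exon arrays. Each line had 4 arrays (20 in total), described by the submitters as technical replicates, and each construct was represented by 1 line. The p-values therefore measure the spread between these arrays and not between independently made lines, and Parent is not described as carrying an empty construct. NME1 encodes a nucleoside diphosphate kinase, and the study asked which genes go with its activity as a suppressor of metastasis.

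ERK is switched on through RAS, RAF and MEK kinases when growth factor receptors or mutant pathway proteins signal. Active ERK induces the genes of its own inhibitors, so that the RNA of these inhibitors is often read as a gauge of how strongly the pathway runs. In melanoma, where the pathway is commonly active through mutation, such genes are known for their high RNA levels and for their drop when the pathway is blocked by drugs.

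The members differ in where they act. DUSP4 and DUSP5 are phosphatases that dephosphorylate ERK in the nucleus, and DUSP6 does so in the cytoplasm. SPRY2 and SPRY4 are Sprouty proteins, which dampen the step between receptors and RAS, and SPRED1 and SPRED2 are related proteins, of which SPRED1 brings neurofibromin to the membrane to switch RAS off. ETV4 and ETV5 are ETS transcription factors of the PEA3 group that carry the signal to further genes. PHLDA1, a pleckstrin homology-like domain protein, is induced by mitogens.

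Promoter sequence is shown for SPRY4 and PHLDA1, the members whose line means lay farthest apart. The windows run from 250 bases before to 50 bases after the annotated start and come from RefSeq (GRCh38.p14), chr5:142324198-142324497 on the minus strand for SPRY4 and chr12:76031727-76032026 on the minus strand for PHLDA1. Capitals mark a match to the ETS core CCGGAA, read on either strand.
SPRY4: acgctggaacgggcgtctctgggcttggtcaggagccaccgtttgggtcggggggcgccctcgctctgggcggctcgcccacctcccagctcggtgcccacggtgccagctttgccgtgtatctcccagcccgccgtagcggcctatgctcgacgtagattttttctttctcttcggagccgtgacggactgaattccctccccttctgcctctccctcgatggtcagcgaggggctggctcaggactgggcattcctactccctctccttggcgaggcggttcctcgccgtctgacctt
PHLDA1: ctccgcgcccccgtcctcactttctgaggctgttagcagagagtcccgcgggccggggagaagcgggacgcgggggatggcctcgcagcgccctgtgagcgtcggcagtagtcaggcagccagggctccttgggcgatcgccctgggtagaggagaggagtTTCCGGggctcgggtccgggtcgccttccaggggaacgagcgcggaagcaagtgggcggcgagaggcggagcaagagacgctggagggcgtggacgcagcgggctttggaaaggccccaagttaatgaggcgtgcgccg
The capitals in the PHLDA1 window begin 89 bases before the start, and the SPRY4 window has no capitals because none of the 3 motifs searched was found in it. Over the 9 windows used from the RefSeq table, which belong to 6 members (DUSP6, SPRY2, SPRY4, SPRED1, SPRED2 and PHLDA1), the ETS core was present in 2, the PHLDA1 window and 1 of the SPRY2 windows. The AP-1 motif TGANTCA was present in 1, a SPRED2 window with 2 matches, and the CRE motif TGACGTCA in 0. Of all 35116 promoter windows in that table, 17.2% held the ETS core, 7.71% the AP-1 motif and 1.85% the CRE, searched in the same way on both strands. A match describes the letters alone, and promoters of the other 4 members were not used here.

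Array medians lay between 6.27 and 6.50 and correlations between arrays between 0.910 and 0.995, and no arrays were identical. The interquartile range of the log2 values, called the spread of an array here, ran over 2.18 to 3.16 with a median of 2.74, and the narrowest were Parent replicate 2 (2.18), then NME1-P96S replicate 3 (2.32), then replicate 2 of NME1-K12Q (2.45). The row annotated to NME1 and NME1-NME2 averaged 9.81 ± 0.0486 in the NME1-wild-type line, 9.78 ± 0.108 in NME1-E5A, 9.75 ± 0.216 in NME1-K12Q, 9.78 ± 0.110 in NME1-P96S and 9.53 ± 0.173 in Parent (SD, n = 4 each). Of 10 melanocytic markers 7 were measured, with SOX10 at 9.20 to 9.66, S100B at 7.76 to 9.26 and MITF at 5.51 to 5.95, and with PMEL at 4.38 to 5.42, MLANA at 3.04 to 4.31 and TYRP1 at 3.71 to 4.90. The table holds no detection call, so absence of a transcript cannot be read from it, and 0 of the measured markers of melanocytes, fibroblasts, leukocytes, endothelium or epithelium changed between lines. In these bulk RNA samples, fewer cells with a transcript and less transcript per cell cannot be told apart.

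None of the 10 genes changed in any comparison between lines. A change meant an adjusted p under 0.05 (limma, Benjamini-Hochberg over the 18385 features tested) and a fold of at least 1.5. Against Parent, 0 of 10 members changed in NME1-wild-type (0.0326% of all features did), 0 in NME1-E5A (0.218%), 0 in NME1-K12Q (0.00544%) and 0 in NME1-P96S (0.103%). Against NME1-wild-type, 0 changed in NME1-E5A (0.207%), NME1-K12Q (0.0381%) and NME1-P96S (0.201%). Between mutants, 0 changed for NME1-E5A against NME1-K12Q (0.169%), NME1-E5A against NME1-P96S (0.239%) and NME1-K12Q against NME1-P96S (0.277%). The mean of the 4 NME1 lines against Parent (0.0109%) and of the 3 mutants against NME1-wild-type (0.0761%) also gave 0 changed members. With so few features called anywhere, 0 of 10 is close to the background, and it does not set these genes apart.

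The intervals say more than the count of calls. Over the 10 pairs of lines the 10 members gave 100 differences, of which the largest was 0.44 on the log2 scale, a fold of 1.35, and 0 reached 1.5-fold. The 95% intervals ran from -0.62 to 0.76, so that no interval reached beyond a 1.69-fold difference between arrays of the lines compared. Only 10 of the 100 intervals extended past 1.5-fold. The median standard error was 0.14, and the lowest adjusted p was 0.631 (limma), for PHLDA1 in NME1-E5A against NME1-P96S. Asked over all 5 lines together, 0 of 10 members differed (limma F test, lowest adjusted p = 1.00), where 0.582% of all features did. Before adjustment the F test was under 0.05 for 2 members, DUSP4 and ETV4, as it was for 3.29% of features.

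**Figure D1:**
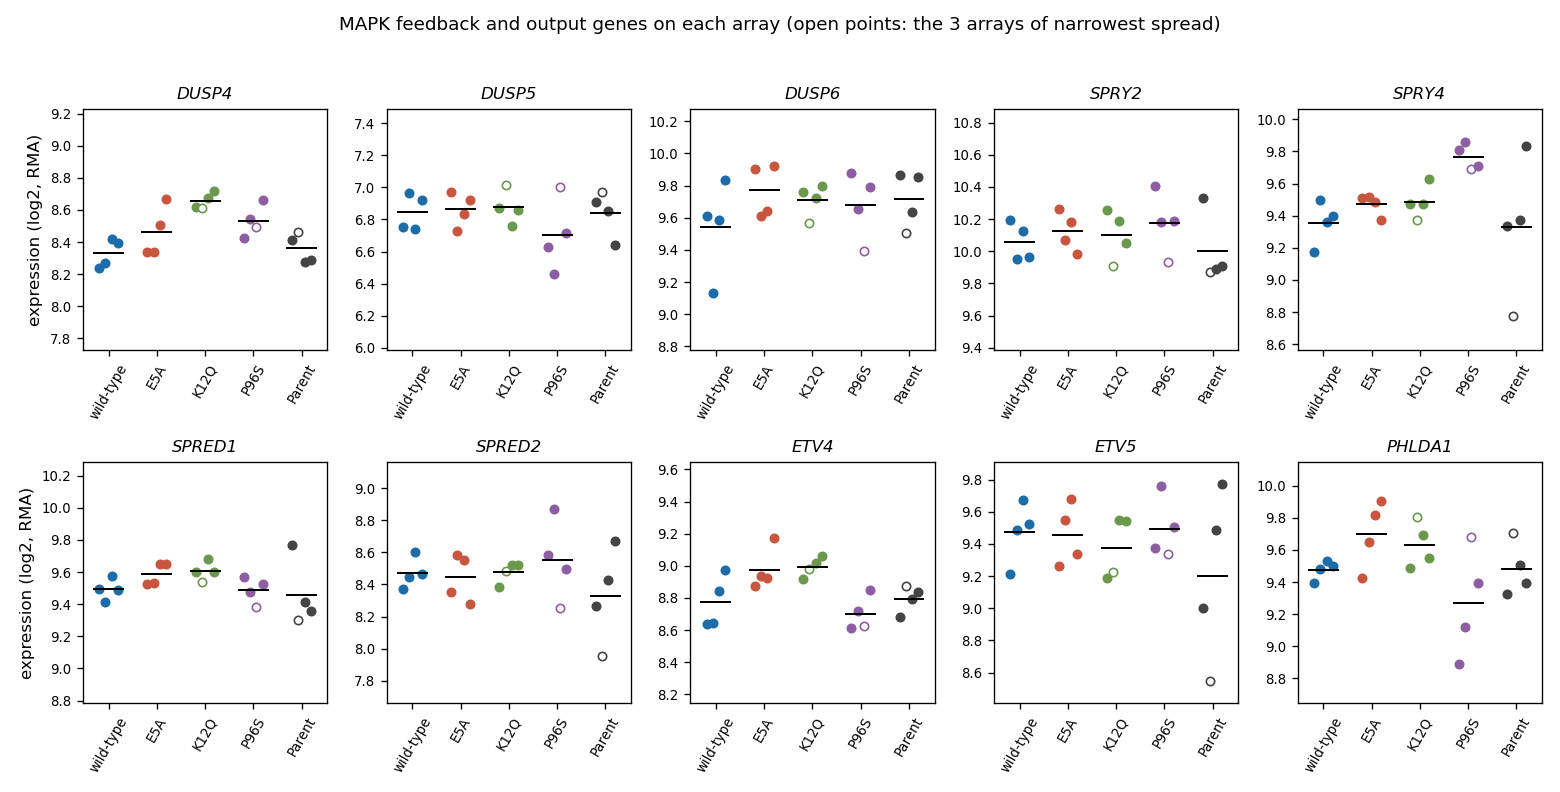
Log2 expression (vertical axis, 1 panel per gene, same height of scale in each) of the 10 genes on each of the 20 arrays, grouped by line, with a bar at the line's mean. Open points are the 3 arrays of narrowest spread; the 4 NME1-P96S points of SPRY4 lie between 9.69 and 9.86, and the Parent points of SPRY4 and ETV5 are the most scattered of their panels.

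Among the phosphatases, DUSP4 showed the clearest order of lines. DUSP4 read 8.62, 8.61, 8.67 and 8.72 on the NME1-K12Q arrays, against 8.24, 8.27, 8.42 and 8.40 on the NME1-wild-type arrays and 8.41, 8.46, 8.28 and 8.29 on the Parent arrays. Every NME1-K12Q array lay above every array of those other lines. NME1-P96S (8.43, 8.54, 8.49 and 8.66) lay above NME1-wild-type without overlap but overlapped Parent, and NME1-E5A (8.34, 8.34, 8.50 and 8.66) overlapped all the others. The difference of NME1-K12Q was 0.30 from Parent (95% interval 0.08 to 0.51, unadjusted p = 0.0092, adjusted p = 1.00, limma) and 0.33 from NME1-wild-type (0.11 to 0.54, unadjusted p = 0.0049, adjusted p = 1.00, limma). NME1-P96S exceeded NME1-wild-type by 0.20 (-0.01 to 0.41, unadjusted p = 0.065, adjusted p = 0.999, limma). None of these passed over all features.

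DUSP4 had little relation to the spread of the array, with a Pearson r of 0.04 over the 20 arrays, and the difference of NME1-K12Q from Parent was 0.33 without Parent replicate 2. The mean of the 3 mutants lay 0.22 above NME1-wild-type in DUSP4 (0.04 to 0.39, unadjusted p = 0.0171, adjusted p = 1.00, limma), the only member with an unadjusted p under 0.05 in that comparison, where 1.90% of features had one.

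DUSP6 and DUSP5 overlapped in all 10 pairs of lines. DUSP6, in humans the ERK-selective cytoplasmic phosphatase and a common readout of pathway activity, averaged 9.54 ± 0.296 in NME1-wild-type, 9.77 ± 0.168 in NME1-E5A, 9.71 ± 0.101 in NME1-K12Q, 9.68 ± 0.213 in NME1-P96S and 9.72 ± 0.175 in Parent (SD, n = 4 each). The low NME1-wild-type mean included 1 array, replicate 2, at 9.13, against 9.59 to 9.84 on its other 3 arrays. Replicate 2 was also the lowest DUSP6 array in Parent (9.51), NME1-E5A (9.61) and NME1-K12Q (9.57), but not in NME1-P96S (9.66). NME1-wild-type differed from Parent by -0.18 (-0.48 to 0.13) and NME1-E5A from NME1-wild-type by 0.23 (-0.08 to 0.54). DUSP5 averaged 6.85 ± 0.114 in NME1-wild-type, 6.86 ± 0.107 in NME1-E5A, 6.88 ± 0.107 in NME1-K12Q, 6.70 ± 0.227 in NME1-P96S and 6.84 ± 0.141 in Parent. The NME1-P96S arrays of DUSP5 spanned 6.46 to 7.00, a span that reached from the lowest to near the highest of the 20 arrays. DUSP5 also moved against the spread of the array, with an r of -0.75 over the 20 arrays.

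Among the inhibitors that act between receptor and RAS, SPRY4 had the largest differences of any member. SPRY4 read 9.81, 9.86, 9.69 and 9.71 on the NME1-P96S arrays. It read 9.17, 9.50, 9.36 and 9.40 on the NME1-wild-type arrays, 9.51, 9.52, 9.48 and 9.37 on the NME1-E5A arrays and 9.48, 9.37, 9.47 and 9.63 on the NME1-K12Q arrays. The NME1-P96S arrays thus lay above all arrays of the other 3 NME1 lines. On the Parent arrays SPRY4 read 9.34, 8.77, 9.37 and 9.83, which overlapped NME1-P96S at the top and lay below every other array at the bottom.

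NME1-P96S exceeded Parent by 0.44 in SPRY4 (0.11 to 0.76, unadjusted p = 0.0105, adjusted p = 0.850, limma) and NME1-wild-type by 0.41 (0.09 to 0.73, unadjusted p = 0.0155, adjusted p = 0.998, limma). NME1-E5A differed from NME1-P96S by -0.30 (-0.62 to 0.03) and NME1-K12Q by -0.28 (-0.60 to 0.04). The spread of the array moved with these values. SPRY4 had an r of 0.71 with the spread over the 20 arrays, and the low Parent array, replicate 2, was the array of narrowest spread. Without it the difference of NME1-P96S from Parent was 0.25, that of NME1-E5A from Parent was -0.04 against 0.14 with it, and that of NME1-K12Q was -0.03 against 0.16 with it. The difference of NME1-P96S from NME1-wild-type, which involves no Parent array, was 0.34 with the spread as a covariate.

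SPRY2, SPRED1 and SPRED2 overlapped in all 10 pairs. SPRY2 averaged 10.06 ± 0.120 in NME1-wild-type, 10.12 ± 0.123 in NME1-E5A, 10.10 ± 0.155 in NME1-K12Q, and 10.18 ± 0.193 in NME1-P96S (SD, n = 4 each). In Parent, replicate 1 stood alone at 10.33, with the other arrays between 9.87 and 9.91. Replicate 1 was also the highest SPRY2 array in each NME1 line (10.19 in NME1-wild-type, 10.26 in NME1-E5A, 10.26 in NME1-K12Q and 10.40 in NME1-P96S). SPRED1 stayed within a span of 0.15 between line means, the narrowest of the members, and 83.7% of all features had a wider span. SPRED1 averaged 9.49 ± 0.0652 in NME1-wild-type, 9.59 ± 0.0711 in NME1-E5A, 9.60 ± 0.0589 in NME1-K12Q, 9.49 ± 0.0804 in NME1-P96S and 9.46 ± 0.212 in Parent.

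SPRED2 averaged 8.47 ± 0.0968 in NME1-wild-type, 8.44 ± 0.151 in NME1-E5A, 8.48 ± 0.0642 in NME1-K12Q, 8.55 ± 0.255 in NME1-P96S and 8.33 ± 0.300 in Parent (SD, n = 4 each). It followed the spread of the array most closely of all members, with an r of 0.80 over the 20 arrays. Its lowest value, 7.95, was again that of Parent replicate 2, and without that array NME1-E5A differed from Parent by -0.01 in place of 0.11.

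**Figure D2:**
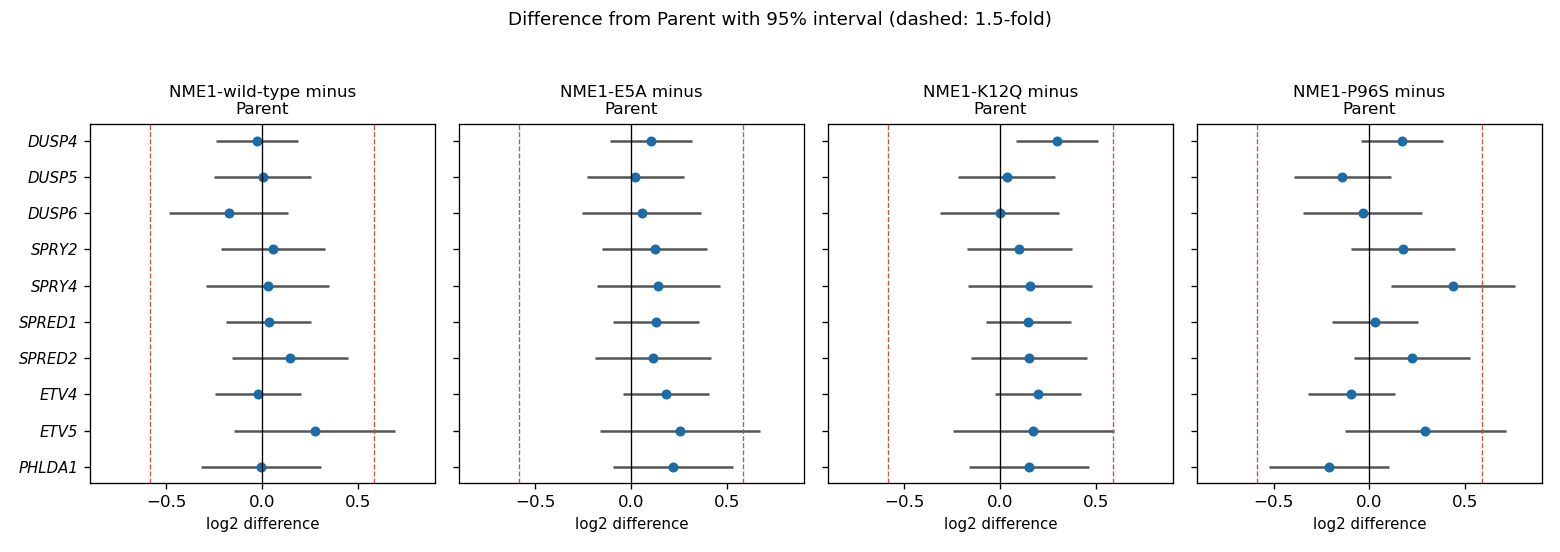
Difference in log2 expression from Parent (horizontal axis) for each gene (rows) in the 4 lines with a construct (panels), as points with 95% intervals; the dashed lines mark 1.5-fold. All 10 points lie right of 0 in NME1-E5A and 9 of 10 in NME1-K12Q, and the intervals of DUSP4 in NME1-K12Q and SPRY4 in NME1-P96S are the ones that leave out 0.

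The ETS factors did not behave alike. ETV4 read 8.87, 8.94, 8.92 and 9.18 on the NME1-E5A arrays and 8.92, 8.98, 9.02 and 9.06 on the NME1-K12Q arrays. It read 8.64, 8.65, 8.85 and 8.97 on the NME1-wild-type arrays, 8.62, 8.72, 8.62 and 8.85 on the NME1-P96S arrays and 8.68, 8.88, 8.79 and 8.84 on the Parent arrays. NME1-E5A and NME1-K12Q both lay above NME1-P96S without overlap, and NME1-K12Q also above Parent. The differences were 0.27 for NME1-E5A against NME1-P96S (0.05 to 0.50, unadjusted p = 0.0195, adjusted p = 0.854, limma), 0.29 for NME1-K12Q against NME1-P96S (0.07 to 0.52, unadjusted p = 0.0138, adjusted p = 0.904, limma) and 0.20 for NME1-K12Q against Parent (-0.03 to 0.42, unadjusted p = 0.0821, adjusted p = 1.00, limma). ETV4 had no relation to the spread of the array (r = -0.0042 over 20 arrays).

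ETV5 read 9.37, 9.76, 9.34 and 9.51 on the NME1-P96S arrays, against 8.55 at the lowest and 9.77 at the highest of the Parent arrays (SD 0.541). Parent thus held both the lowest and the highest ETV5 value of all 20 arrays, and ETV5 overlapped in all 10 pairs. The other lines averaged 9.48 ± 0.194 (NME1-wild-type), 9.46 ± 0.192 (NME1-E5A) and 9.37 ± 0.196 (NME1-K12Q). The difference of NME1-P96S from Parent was 0.29 (-0.13 to 0.71), and without Parent replicate 2 it was 0.07, while that of NME1-K12Q was -0.05 in place of 0.17. ETV5 had an r of 0.68 with the spread of the array.

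PHLDA1 held the pair with the smallest adjusted p. It read 9.43, 9.65, 9.82 and 9.90 on the NME1-E5A arrays and 9.49, 9.80, 9.69 and 9.55 on the NME1-K12Q arrays, against 8.89, 9.12, 9.68 and 9.40 on the NME1-P96S arrays. The NME1-P96S arrays ran from 8.89 to 9.68 and overlapped both lines through their replicate 3 at 9.68, an array of narrow spread. NME1-wild-type (9.40, 9.48, 9.53 and 9.50) was the tightest line, and Parent (9.33, 9.71, 9.50 and 9.39) overlapped every other line.

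NME1-E5A exceeded NME1-P96S by 0.43 in PHLDA1 (0.11 to 0.74, unadjusted p = 0.0102, adjusted p = 0.631, limma) and NME1-K12Q did so by 0.36 (0.05 to 0.68, unadjusted p = 0.0260, adjusted p = 1.00, limma). PHLDA1 had an r of -0.63 with the spread of the array. Without NME1-P96S replicate 3 the difference of NME1-E5A from NME1-P96S was 0.56 (adjusted p = 0.0892, limma), and with each array weighted by how closely it followed the fit it was 0.63 (adjusted p = 0.00210, limma), where 3.00% of features changed, against 0.239% without weights. That weighting gave NME1-P96S replicate 3 a weight of 0.105 and Parent replicate 2 a weight of 0.183, and it is the setting of the 32 tried under which a member passed both marks.

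**Figure D3:**
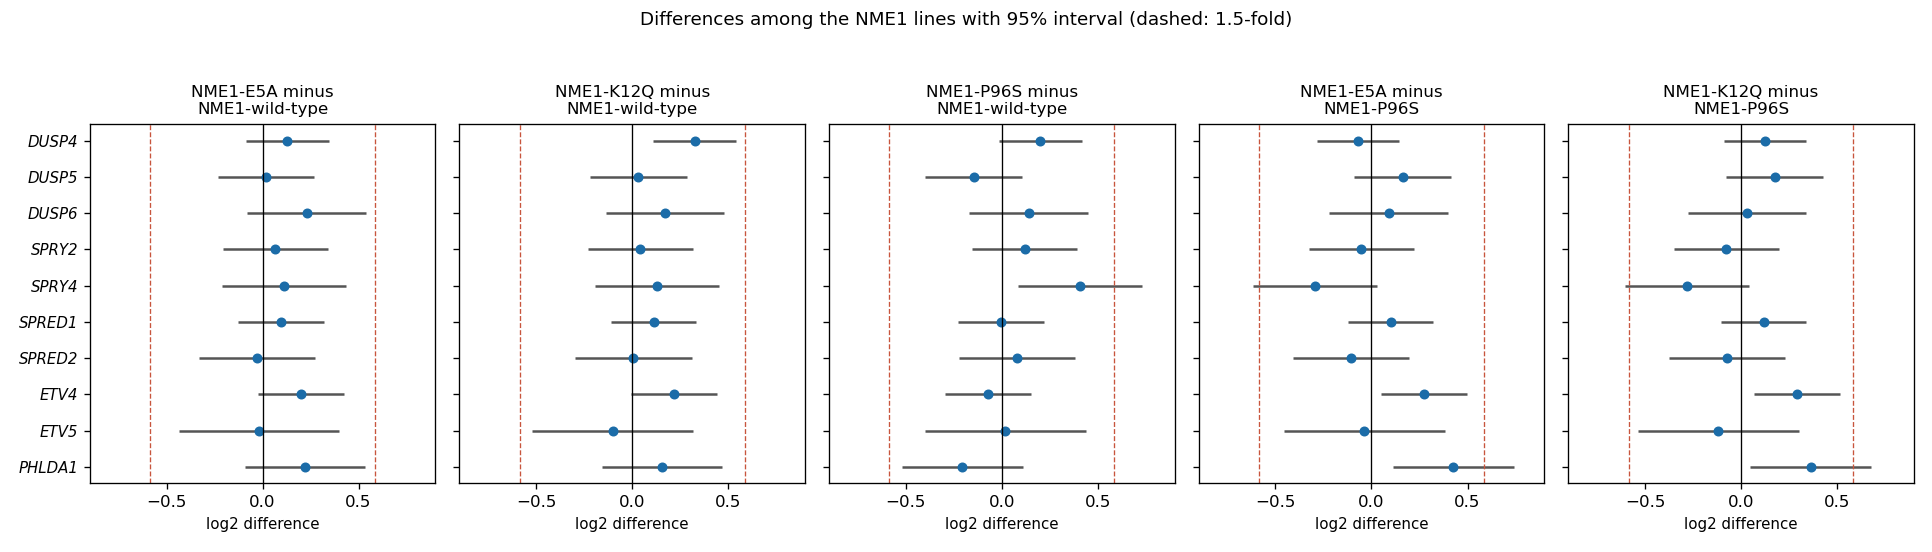
Difference in log2 expression (horizontal axis) for each gene (rows) between lines that carry an NME1 construct (panels, named line minus line), as points with 95% intervals; the dashed lines mark 1.5-fold. The intervals of DUSP4 in NME1-K12Q and of SPRY4 in NME1-P96S, each against NME1-wild-type, lie right of 0. In the 2 panels set against NME1-P96S, those of ETV4 and PHLDA1 lie right of 0. The SPRY4 points there lie left of 0, with intervals that cross it.

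The separation of arrays was counted for all members in the same way. Of the 100 member-by-pair comparisons 9 had arrays that did not overlap, where 2.05% of all feature-by-pair comparisons did. They came from 3 genes: DUSP4 (3 pairs), SPRY4 (3 pairs) and ETV4 (3 pairs). By pair they were 2 members in NME1-K12Q against Parent (1.17% of features), 1 in NME1-K12Q against NME1-wild-type (1.34%), 2 in NME1-P96S against NME1-wild-type (1.83%), 2 in NME1-E5A against NME1-P96S (3.01%) and 2 in NME1-K12Q against NME1-P96S (2.22%). In each of the 9 the exact two-sided permutation test gave p = 0.0286, the smallest that 4 against 4 arrays allow, and the smallest value after Benjamini-Hochberg adjustment over the 100 was 0.317. Unadjusted limma p-values under 0.05 were found in 8 of the 100, where 2.61% of all such comparisons had one. The pairs share lines, and the genes were chosen with earlier results of these data known, so these shares describe the members and were not tested.

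Ordered by line mean, the members followed no common ranking. DUSP4, DUSP5, SPRED1 and ETV4 were highest in NME1-K12Q, SPRY2, SPRY4, SPRED2 and ETV5 in NME1-P96S, and DUSP6 and PHLDA1 in NME1-E5A. Parent was lowest for SPRY2, SPRY4, SPRED1, SPRED2 and ETV5, NME1-wild-type for DUSP4 and DUSP6, and NME1-P96S for DUSP5, ETV4 and PHLDA1. No neighbours in any of these orders differed beyond their spread by the test across all features. The span of line means was 0.44 for SPRY4, which 7.39% of features exceeded, 0.43 for PHLDA1 (8.03%) and 0.33 for DUSP4 (22.1%), beside a median of 0.23 over all features. SPRY2 (0.18), DUSP5 (0.18) and SPRED1 (0.15) lay under that median.

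Taken over the set, the differences from Parent were small and moved with 1 Parent array. The median member difference was 0.13 in NME1-E5A, with 10 of 10 positive, 0.15 in NME1-K12Q with 9 of 10, 0.10 in NME1-P96S with 6 of 10 and 0.02 in NME1-wild-type with 6 of 10. Over all features the medians were -0.04, -0.05, -0.06 and -0.03 in the same order of lines, and 39.2%, 36.3%, 38.3% and 41.1% of features were positive. All 10 members lay among the features above the median mean level, over which the medians were 0.02 in NME1-E5A, 0.01 in NME1-K12Q, 0.03 in NME1-P96S and 0.04 in NME1-wild-type. Beside those, the members' median was lower in NME1-wild-type and higher in the 3 mutants. Without Parent replicate 2 the members' medians were 0.07 in NME1-E5A, 0.07 in NME1-K12Q, 0.02 in NME1-P96S and 0.01 in NME1-wild-type, with 7, 7, 5 and 7 positive. Over all features that setting gave medians of 0.01 in NME1-E5A, 0.02 in NME1-K12Q, -0.01 in NME1-P96S and 0.02 in NME1-wild-type. The 4 comparisons share the Parent arrays, so their leaning is not counted as separate results. With quantile-normalised arrays NME1-wild-type had 2 of 10 positive and a median of -0.05.

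Against NME1-wild-type the members' median was 0.10 in NME1-E5A, 0.12 in NME1-K12Q and 0.05 in NME1-P96S, beside -0.01, -0.01 and -0.04 over all features. By role, the 3 phosphatases had medians of 0.13 in NME1-E5A, 0.17 in NME1-K12Q and 0.14 in NME1-P96S against NME1-wild-type, with DUSP5 at 0.02, 0.03 and -0.15 in the same order, and the 4 Sprouty and Spred genes had medians of 0.08 in NME1-E5A, 0.08 in NME1-K12Q and 0.10 in NME1-P96S. The ETS factors and PHLDA1 went both ways. In NME1-E5A, NME1-K12Q and NME1-P96S, ETV4 differed from NME1-wild-type by 0.20, 0.22 and -0.07. ETV5 differed by -0.02, -0.10 and 0.02, and PHLDA1 by 0.22, 0.16 and -0.21, in the same order. Of all features, 46.2%, 47.9% and 38.7% were positive in these 3 comparisons. These again share the NME1-wild-type arrays, and 0 of the genes passed.

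**Figure D4:**
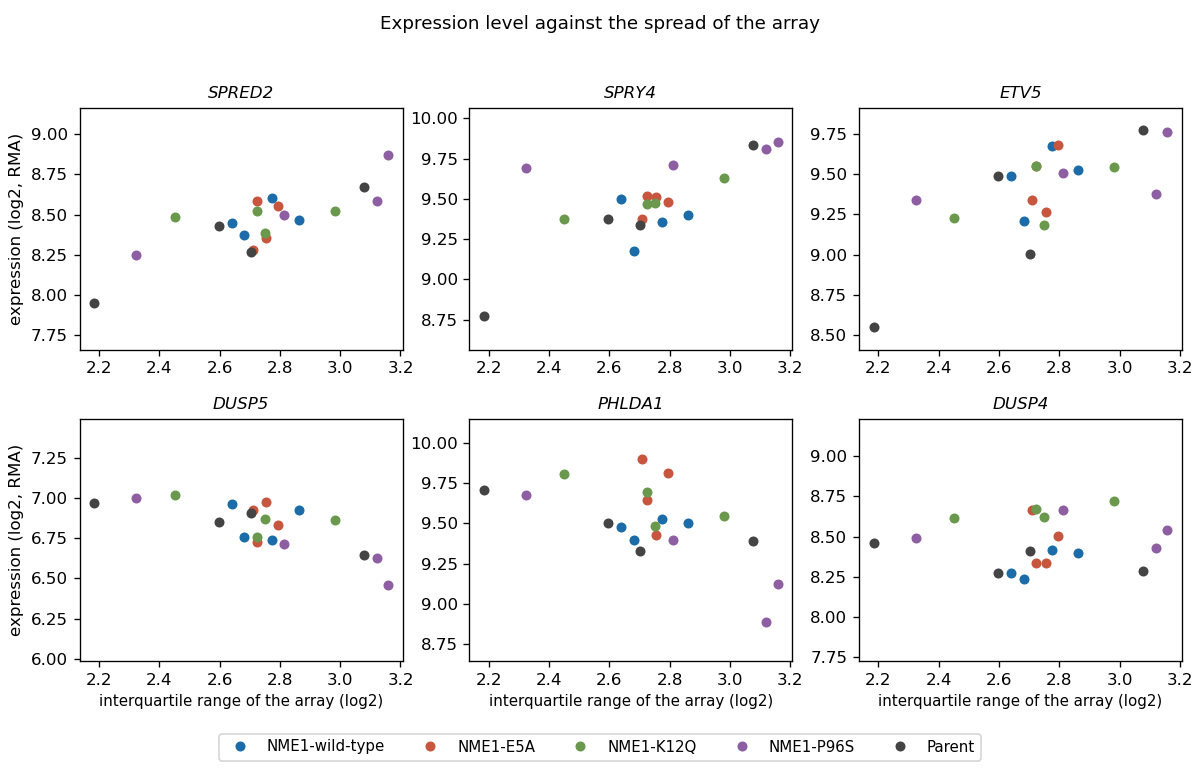
Log2 expression (vertical axis) of SPRED2, SPRY4, ETV5, DUSP5, PHLDA1 and DUSP4 against the interquartile range of all log2 values of the array (horizontal axis), 1 point per array, coloured by line. SPRED2, SPRY4 and ETV5 climb with the range (r = 0.80, 0.71 and 0.68), DUSP5 and PHLDA1 decline (r = -0.75 and -0.63), and DUSP4 does neither (r = 0.04).

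Within lines, some members moved together from array to array. After the line means were removed, SPRED2 and ETV5 had a Pearson r of 0.88 over the 20 arrays, SPRY4 and ETV5 of 0.83, SPRY4 and SPRED2 of 0.77, DUSP4 and ETV4 of 0.75 and SPRY2 and SPRED1 of 0.72. DUSP5 ran opposite to SPRED2 (r = -0.80) and PHLDA1 opposite to SPRY2 (r = -0.73). Since arrays of the same line are technical repeats, these values describe arrays that share a line and differ in spread and replicate number. In every line, replicate 1 was highest for SPRY2 and lowest for ETV4 and PHLDA1. DUSP4 and ETV4 had an r of 0.04 and -0.0042 with the spread of the array. The part of the replicate number in the links was not tested. SPRED2, ETV5 and SPRY4, the 3 most strongly linked genes, also had the highest r with the spread of the array, and the part of that spread in the links was not tested. Over all 20 arrays the spread had an r of 0.53 with DUSP6, 0.49 with SPRY2, 0.29 with SPRED1 and 0.49 with the mean of the members.

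The features outside the set whose pattern over the 20 arrays was most like the mean of the members were DDX17 (r = 0.87), JOSD1 (0.87), MLEC (0.86), TMX4 (0.86) and FLT1 (0.86). For the members with the smallest F-test p, DUSP4 was most like TTBK2 (0.83) and STK35 (0.80), ETV4 most like the matrix metalloprotease gene MMP14 (0.94) and ST3GAL2 (0.90), SPRY4 most like STK32B (0.92) and KAT2B (0.85), and PHLDA1 most like ARHGAP45 (0.91) and FGFRL1 (0.87). These r values were the highest among the 14410 named features and describe these arrays. KAT2B itself had an r of 0.91 with the spread of the array, STK32B of 0.77, ARHGAP45 of -0.70 and FGFRL1 of -0.66. MMP14 had -0.08, ST3GAL2 -0.11, TTBK2 0.19 and STK35 0.04. Of the features most like the mean of the members, FLT1 had 0.76, DDX17 0.65, JOSD1 0.65, MLEC 0.60 and TMX4 0.37. The part of the spread in these likenesses was not tested.

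The rest of the pathway was read through 83 further genes, of which 65 had a row of their own. None of the 7 other dual-specificity MAP kinase phosphatases, 6 other ETS factors, 8 cascade genes or 21 immediate early and other ERK output genes changed in any of the 10 pairs, and among 8 other Sprouty, Spred and feedback inhibitors 1 did. Among 15 receptor tyrosine kinases and ligands 3 did. Of all features, between 0.00544% (NME1-K12Q against Parent) and 0.277% (NME1-K12Q against NME1-P96S) changed in a single pair. The share of all features changed in any of the 10 pairs was not counted. The lists were chosen with earlier results of these data known, so these counts do not set a list apart and were not tested. CCND1, the cyclin D1 gene and a known output of ERK, lay 0.07 above Parent in NME1-E5A, 0.20 in NME1-K12Q, 0.10 in NME1-P96S and 0.11 in NME1-wild-type, and IER3, an immediate early gene, between 0.04 and 0.11. DUSP7, another ERK phosphatase gene, differed from Parent by 0.13 in NME1-wild-type and by -0.20 in NME1-P96S, and MAPK3, which encodes ERK1, by 0.09 in NME1-wild-type and by -0.02 in NME1-P96S.

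SPRY1, the closest relative of the Sprouty members to change, rose in NME1-P96S against NME1-wild-type by 0.64 (adjusted p = 0.0217, limma). It read 7.62, 7.86, 7.62 and 7.70 on the NME1-P96S arrays, against 7.09, 6.82, 7.07 and 7.25 on the NME1-wild-type arrays, with no overlap. NME1-E5A (7.63, 7.68, 7.67 and 7.56) also lay above NME1-wild-type, by 0.57 (adjusted p = 0.0487, limma), just under the 1.5-fold mark. NME1-K12Q (7.12, 7.03, 7.11 and 7.28) overlapped NME1-wild-type and lay below NME1-P96S (difference -0.57, adjusted p = 0.0419, limma), again just under that mark. SPRY1 thus stood high in the same line as SPRY4, NME1-P96S, but also in NME1-E5A, where SPRY4 overlapped NME1-wild-type. The SPRY1 call was lost under 8 of 32 other settings, and 5 of these left out 1 array (adjusted p between 0.0601 and 0.107, limma): replicates 2 and 4 of NME1-P96S and the first 3 replicates of NME1-wild-type each did so.

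EREG encodes epiregulin, a ligand of the EGF receptor that feeds the pathway from outside. It read 6.04, 5.89, 5.83 and 6.13 on the NME1-E5A arrays, 6.20, 5.99, 6.76 and 5.96 on the NME1-P96S arrays and 7.77, 7.50, 7.45 and 7.62 on the NME1-K12Q arrays, against 8.05, 8.25, 7.67 and 7.79 on the NME1-wild-type arrays. NME1-E5A and NME1-P96S were low and NME1-K12Q and NME1-wild-type high, with Parent (7.31, 7.13, 6.86 and 6.92) between them and apart from both. Against NME1-wild-type, EREG fell by 1.96 in NME1-E5A and by 1.71 in NME1-P96S (adjusted p = 2.28e-06 and 1.53e-05, limma), and against Parent it fell by 1.08 in NME1-E5A (adjusted p = 0.00354, limma).

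Against each other, NME1-E5A differed from NME1-K12Q by -1.61 in EREG and NME1-K12Q from NME1-P96S by 1.36. TGFA, which encodes another EGF receptor ligand, read 6.25, 6.20, 6.24 and 6.19 on the NME1-E5A arrays, against 5.43, 5.80, 5.49 and 5.46 on the Parent arrays. These are low readings: its line means ran from 5.55 in Parent to 6.22 in NME1-E5A, under the lowest array median of 6.27. TGFA rose in NME1-E5A by 0.67 against Parent (adjusted p = 0.00909, limma) and by 0.61 against NME1-P96S (adjusted p = 0.0197, limma). The first call was lost without NME1-E5A replicate 3 (adjusted p = 0.0505, limma), and the second without any 1 of 7 arrays, the 4 of NME1-E5A and replicates 1, 2 and 4 of NME1-P96S (adjusted p between 0.0543 and 0.0893, limma). In NME1-E5A, then, 1 ligand gene was lower and the other higher than in Parent, while the members' differences from Parent there lay between 0.02 and 0.26.

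MET, the hepatocyte growth factor receptor gene, read 4.61, 4.94, 4.67 and 4.66 on the NME1-P96S arrays, against 5.22, 5.26, 5.44 and 5.37 on the NME1-wild-type arrays. These too are low readings: its line means ran from 4.72 in NME1-P96S to 5.48 in NME1-E5A, under the lowest array median of 6.27. MET fell by 0.61 in NME1-P96S (adjusted p = 0.0428, limma), a call lost under 20 of 31 other settings, 15 of which left out 1 array (adjusted p between 0.0547 and 0.171, limma), among them each array of NME1-wild-type. It also rose in NME1-E5A against NME1-P96S by 0.76 (adjusted p = 0.00468, limma). That call was lost under 3 of 31 other settings, among them quantile normalisation (0.67, adjusted p = 0.416, limma). The members of largest span, SPRY4 and PHLDA1, likewise had their extremes in NME1-P96S, SPRY4 at its highest and PHLDA1 at its lowest. Whether these patterns belong together was not tested.

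**Figure D5:**
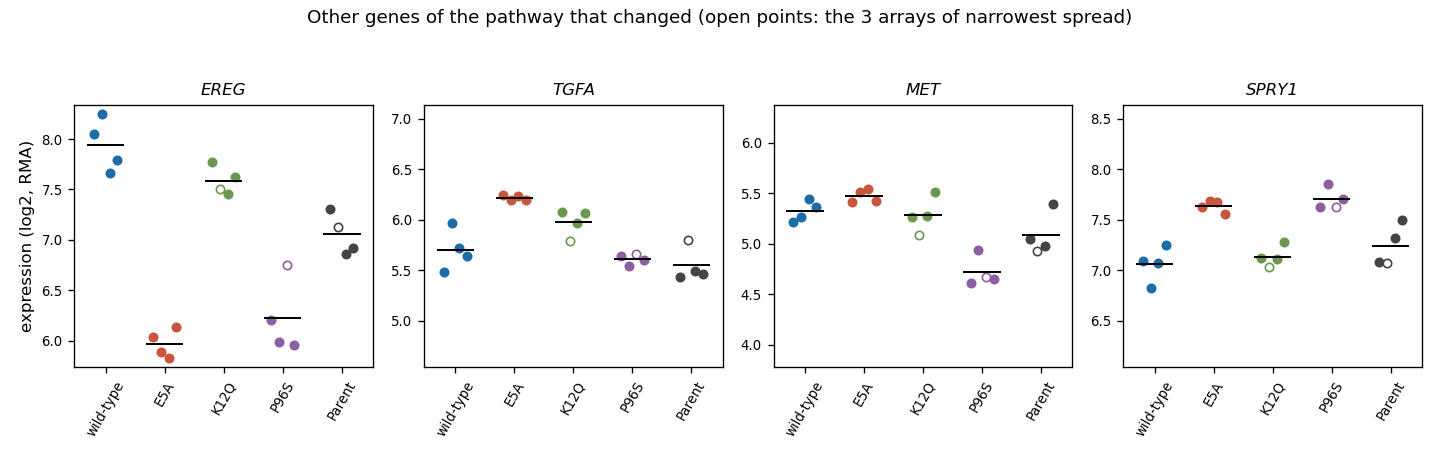
Log2 expression (vertical axis) of EREG, TGFA, MET and SPRY1, the 4 other pathway genes that changed between lines, on each array, grouped by line with a bar at the line's mean. Open points are the 3 arrays of narrowest spread; EREG separates NME1-E5A and NME1-P96S from NME1-wild-type and NME1-K12Q, with Parent between them.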

How the data were processed

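Per the design text, the authors processed the arrays with RMA in R, and the deposited table holds the resulting log2 values. The submitters' processing notes name RMA and limma. Not given in the sources used here are the versions of these tools, the genome build and the annotation release. Lines and replicate numbers were taken from the titles. Rows were named from the platform annotation: 14733 of 18708 rows had 1 symbol, 2875 had several and 1100 were not listed. The row of highest mean stood for a gene with several rows, which left 18385 features.

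A limma 3.58.1 model (R 4.3.3) took 1 mean per line and used all 20 arrays (15 residual degrees of freedom), and the 10 pairs of lines and 2 pooled contrasts were tested two-sided with Benjamini-Hochberg adjustment over all features within each comparison. A feature changed at an adjusted p under 0.05 and at least 1.5-fold. No filter on low values was applied, so all 10 members were tested. Each member and pair also had an exact permutation test of 4 against 4 arrays. Precision is limited by the number of arrays.

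The members, the gene lists and the tests were chosen with earlier results of these data known. Named besides the members were, from each pathway list, up to 4 genes that changed and the 2 of highest mean, and the features most like the members over the 20 arrays (5 for their mean, 2 for each of the 4 members of smallest F-test p). Only some of the second kind are printed. Genes without a row of their own were not used here. The alternatives tried were 20 settings that left out 1 array each and 12 others: quantile normalisation, centring on the median, the array's spread as a covariate, array weights, leaving out the 3 arrays of narrowest spread, a replicate block, a trended robust fit, features above the median mean, no minimum fold, a test against 1.5-fold, every row kept, and only the arrays of the lines compared.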

Additional observations from a re-analysis of the deposited data

Results flagged for a closer look

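Within a line of 4 arrays, 1 array stood apart in 1 of 50 groups for the members, where chance alone gives about 1 in 20. SPRY2 read 10.33 on Parent replicate 1, with the nearest Parent array at 9.91. Replicate 1 was also the highest SPRY2 array in every NME1 line (10.19 to 10.40), but it did not stand apart there. The next arrays read 10.13 in NME1-wild-type, 10.18 in NME1-E5A, 10.19 in NME1-K12Q and 10.19 in NME1-P96S. Outside the members 2 groups held an array that stood apart: MET read 4.94 on NME1-P96S replicate 2, with the nearest at 4.67, and TGFA read 5.80 on Parent replicate 2, with the nearest at 5.49. Over members and the other changed genes this made 3 of 70 groups.

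No member had a difference from Parent that differed between NME1 lines by the test across all features. The other pathway genes did in 8 cases (limma, adjusted over all features), since a difference between NME1 lines is the difference between their contrasts with the shared Parent arrays. SPRY1 differed by 0.64 between NME1-P96S and NME1-wild-type. MET differed by -0.61 between NME1-P96S and NME1-wild-type and by 0.76 between NME1-E5A and NME1-P96S. TGFA differed by 0.61 between NME1-E5A and NME1-P96S. EREG differed by -1.96 between NME1-E5A and NME1-wild-type, by -1.71 between NME1-P96S and NME1-wild-type, by -1.61 between NME1-E5A and NME1-K12Q and by 1.36 between NME1-K12Q and NME1-P96S.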

How the results depend on the processing

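Over 32 other settings the members gave 3200 differences, of which 1 passed both marks: with array weights, 1 member changed in NME1-E5A against NME1-P96S (PHLDA1, 0.63, adjusted p = 0.00210, limma). The same weighting gave 2 members that differed over the 5 lines (F test, adjusted p = 0.0130 for PHLDA1 and 0.0462 for SPRY4), where 6.28% of features did, against 0.582% without weights. It raised the changed features in NME1-E5A against NME1-P96S to 551, against 44 without weights, and in NME1-P96S against Parent to 1639, against 19. In the main fit, without weights, 2 members (DUSP4 and ETV4) had an unadjusted F-test p under 0.05, as did 3.29% of features. Below 1.5-fold, members reached an adjusted p under 0.05 (limma) 6 more times with array weights. They did so 1 more time without the 3 arrays of narrowest spread (PHLDA1, NME1-E5A against NME1-P96S, 0.56, adjusted p = 0.0312, limma). The share of all features that did so below 1.5-fold was not counted in these settings, so these counts do not set the members apart. Leaving out 1 array gave between 0 and 0 changed members in each comparison. The sign of a member difference turned in 126 of the 3200 values, in 6 of them where it had been at least 0.1: SPRY4, SPRED2 and ETV5 against Parent, when Parent replicate 2 was left out. The replicate block gave 0 changed members (lowest adjusted p = 0.272, against 0.631 in the main fit, limma). Replicate numbers were not taken to pair the arrays, since the labels tie them to no shared batch and 25 of 40 same-number pairs, not all, correlated above 0.1 (range -0.849 to 0.810). In 2 of 10 pairs of lines, NME1-K12Q with NME1-wild-type and NME1-wild-type with Parent, every same-number pair did, and 11 of 20 arrays were most like their own number, a hint from the data and not the design. In these 2 comparisons the block gave 7 and 6 changed features, as without it. In every other comparison more features changed with the block. Examples are NME1-E5A against NME1-P96S (57, against 44 without it) and NME1-K12Q against NME1-P96S (59, against 51). Among the members, replicate 1 held the highest SPRY2 value and the lowest ETV4 and PHLDA1 values in each of the 5 lines. The main intervals and p-values take no account of such a shift shared by replicate number. Calls of the other genes were lost under 20 of 31 settings for MET in NME1-P96S against NME1-wild-type and 8 of 32 for SPRY1. For TGFA in NME1-E5A against NME1-P96S it was 10 of 31. Fewer settings ended the calls of TGFA in NME1-E5A against Parent (3 of 31) and MET in NME1-E5A against NME1-P96S (3 of 31). The EREG call was lost under 2 of 32 in NME1-K12Q against NME1-P96S and 1 of 32 in NME1-E5A against Parent. In its other pairs the EREG call was kept under all 32. The cause was not tested.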
